A study of Mus musculus with 9 samples.

Results

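The loci described here are those of 8 genes for transcriptional cofactors: Meis1, Meis2, Meis3, Pbx2, Pbx3, Tshz1, Tshz2 and Tshz3. Each locus was the gene body in the mouse mm9 genome build with 50 kb added on each side, and every open chromatin peak whose midpoint fell inside was counted. These are 8 of 22380 windows drawn in the same way around protein-coding genes. Merging overlapping peaks of all libraries gave 114 separate regions at the 8 loci, of 73341 over the genome, and 83 of the 114 were distal, meaning over 1 kb from every annotated transcription start site (TSS).

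MEIS and PBX proteins are homeodomain factors of the TALE class, so called for a short extension of the homeodomain loop, and they bind DNA together with each other and with HOX proteins. This partnership raises the DNA sequence selectivity of HOX factors and patterns the hindbrain, the pharyngeal arches and the outflow tract of the heart. The Teashirt proteins TSHZ1, TSHZ2 and TSHZ3 are large zinc finger factors, related to a Drosophila homeotic gene, that act mostly as transcriptional repressors. Genes of developmental regulators such as these are commonly surrounded by many distal enhancers, which appear as peaks in an assay for transposase-accessible chromatin (ATAC-seq).

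Cells carrying green fluorescent protein (GFP) were sorted at embryonic day 9.5 from pools of Swiss Webster embryos, and the peaks of 3 groups of 3 libraries were compared. The Tbx1-Cre Ctrl cells came from Tbx1Cre;Rosa26-GFPflox/+ embryos, in which the Cre knock-in leaves 1 working copy of Tbx1, the T-box gene linked to DiGeorge syndrome. The Tbx1-Cre cKO cells came from Tbx1Cre/flox;Rosa26-GFPflox/+ embryos, in which the second copy is deleted where Cre is active. The Mesp1-Cre Ctrl cells came from Mesp1Cre;Rosa26-GFPflox/+ embryos and carry the broader mesoderm lineage with Tbx1 intact. All 9 libraries carry a Cre knock-in and the GFP reporter, and no library was free of Cre. The labels call the tissue pharyngeal apparatus and heart, with the back included for Tbx1-Cre, while the study's methods describe pharyngeal tissue without the heart. GFP marks every descendant of a cell that once expressed Cre, so that pharyngeal epithelium can be present in the Tbx1-Cre sorts.

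Differences between whole lists bear on every count below. The Tbx1-Cre Ctrl lists held 27289 to 31550 distal peaks, the cKO lists 7168 to 14553 and the Mesp1-Cre lists 11755 to 26080. Peak calling gave no read depth or score, so a locus without a peak is a locus where none was called, and fewer sorted cells of a type, lower accessibility and shallower libraries cannot be told apart. Of 8 pharyngeal mesoderm genes (Isl1, Tcf21, Hand2, Foxf1, Nkx2-5, Mef2c, Pdgfra, Twist1), 6 to 7 had a promoter peak in the Ctrl libraries, 4 to 6 in cKO and 6 to 7 in Mesp1-Cre. Of 8 epithelial genes, 3 to 6 had one in Ctrl, 2 to 3 in cKO and 3 to 4 in Mesp1-Cre, and Cldn6 had none in any library. Of 6 endothelial and blood genes 1 to 3 had one in each library, with Cdh5, Pecam1 and Gata1 at 0 throughout. Of 4 neural crest and neural genes (Sox10, Foxd3, Sox2, Pou3f2) 1 to 3 had one. Sox10 was at 0 throughout, Foxd3 had one only in Ctrl library 2, and Pou3f2 had one in every library. The part of these differences in the results was not tested. At Tbx1 itself the cKO libraries had no promoter peak, against 1, 1 and 2 in Ctrl and 1, 1 and 0 in Mesp1-Cre.

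Reference sequence is shown for 4 distal regions, as examples of 3 patterns of presence over the libraries. The Meis2 and Pbx3 intronic regions had a peak in all 9 libraries, the Tshz2 region had one in all Tbx1-Cre Ctrl and Mesp1-Cre libraries but in no cKO library, and the Meis1 region had one in all Mesp1-Cre libraries but in no Tbx1-Cre library. Each is the 300 bases around the middle of the region, plus strand, mm9. Capitals mark matches on either strand to the MEIS/PKNOX core TGACAG, the PBX-HOX site TGATTNAT, the GATA site AGATAA or the T-box half-site GGTGTGA.
Meis2 intron, chr2:115846486-115846785: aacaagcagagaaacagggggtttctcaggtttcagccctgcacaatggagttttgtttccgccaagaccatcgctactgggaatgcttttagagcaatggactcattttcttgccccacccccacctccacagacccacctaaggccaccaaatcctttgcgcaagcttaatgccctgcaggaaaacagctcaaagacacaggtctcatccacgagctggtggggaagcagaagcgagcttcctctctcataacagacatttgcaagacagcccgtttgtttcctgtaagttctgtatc
Pbx3 intron, chr2:34105169-34105468: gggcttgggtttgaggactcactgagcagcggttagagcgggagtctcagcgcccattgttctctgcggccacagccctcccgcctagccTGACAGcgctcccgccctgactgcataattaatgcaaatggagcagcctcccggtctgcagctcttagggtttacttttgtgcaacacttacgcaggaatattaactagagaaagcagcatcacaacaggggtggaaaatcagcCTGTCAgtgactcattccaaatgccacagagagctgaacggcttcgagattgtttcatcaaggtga
Tshz2 intron, chr2:169629993-169630292: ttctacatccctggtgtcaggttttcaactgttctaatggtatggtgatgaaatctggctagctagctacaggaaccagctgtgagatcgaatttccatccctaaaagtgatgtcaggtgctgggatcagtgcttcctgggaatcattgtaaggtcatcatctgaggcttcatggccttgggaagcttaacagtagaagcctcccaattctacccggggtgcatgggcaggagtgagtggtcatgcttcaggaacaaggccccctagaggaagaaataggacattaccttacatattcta
Meis1 intron, chr11:18830971-18831270: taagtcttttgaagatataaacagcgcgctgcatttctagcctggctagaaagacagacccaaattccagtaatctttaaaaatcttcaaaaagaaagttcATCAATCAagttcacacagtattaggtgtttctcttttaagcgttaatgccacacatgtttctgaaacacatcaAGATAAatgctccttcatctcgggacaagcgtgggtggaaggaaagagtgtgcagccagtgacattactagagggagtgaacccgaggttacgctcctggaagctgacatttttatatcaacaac

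The Pbx3 sequence held 2 matches to the MEIS/PKNOX core and the Meis1 sequence held 1 PBX-HOX and 1 GATA match, while the Meis2 and Tshz2 sequences held none of the 4 motifs. Over the 83 distal regions of the loci, 21 (25.3%) held the MEIS/PKNOX core, against 26.9% of all 54275 distal regions cut to the same length. The PBX-HOX site was in 4 (4.82%), against 4.34%. The T-box half-site was in 4 (4.82%), against 4.23%, and the GATA site in 11 (13.3%), against 15.3%. The 83 regions thus held each motif about as often as distal regions over the genome, and a match in these letters does not show that a factor is bound.

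Distal peaks were fewer in the Tbx1-Cre cKO libraries at most of the loci. The 8 loci together held 58, 37 and 42 distal peaks in Tbx1-Cre Ctrl libraries 1, 2 and 3, against 25, 18 and 8 in cKO and 52, 27 and 34 in Mesp1-Cre Ctrl. The means were 45.7 ± 11, 17 ± 8.54 and 37.7 ± 12.9 (SD, n = 3 libraries each). Every cKO library lay below every Ctrl library, whereas the Mesp1-Cre range overlapped that of Ctrl. The cKO mean was 0.372 of the Ctrl mean at the loci, and over whole lists the ratio of distal peaks was 0.355. For Mesp1-Cre the ratio was 0.825 at the loci and 0.597 over whole lists.

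**Figure D1:**
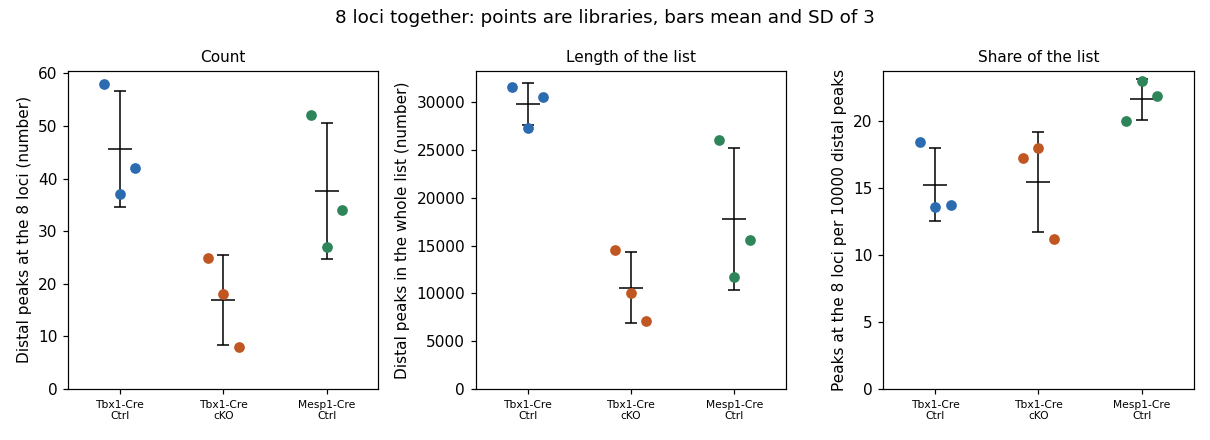
Points are libraries and bars are the mean and SD of 3. The left panel gives distal peaks at the 8 loci (number), the middle panel distal peaks in the whole list (number) and the right panel peaks at the loci per 10000 distal peaks of the list. The cKO libraries sit lowest in the first panel with 8 to 25 peaks, but at 11.2 to 17.9 per 10000 they overlap the Ctrl libraries in the third, where the Mesp1-Cre libraries sit highest at 19.9 to 23.0.

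Among the MEIS genes, Meis2 carried the most distal peaks per length of window in both Tbx1-Cre groups, and Meis1 in Mesp1-Cre, at 3.63 per 100 kb against 2.97 for Meis2. Meis2, which is required for cranial neural crest and heart outflow development, lies on the minus strand at chr2:115688800-115891575. It had 17, 11 and 13 distal peaks in Ctrl, 8, 8 and 3 in cKO and 11, 7 and 9 in Mesp1-Cre. All cKO libraries were below all Ctrl libraries, with means of 13.7 ± 3.06 and 6.33 ± 2.89 (SD, n = 3). Its Ctrl density of 4.51 distal peaks per 100 kb was at the 96.3 percentile of all 22380 windows.

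Meis1, a partner of HOX proteins in blood stem cells and limbs as well as in the heart, lies on the minus strand at chr11:18780433-18918961. It had 7, 10 and 11 distal peaks in Ctrl, 6, 5 and 1 in cKO and 12, 8 and 6 in Mesp1-Cre. The cKO libraries were again all below Ctrl, although cKO library 1 was within 1 peak of the lowest Ctrl library. Its Ctrl density of 3.91 per 100 kb was at the 93.9 percentile.

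Meis3, which acts in hindbrain patterning, is a short gene on the plus strand at chr7:16760729-16771853. It had 4, 1 and 2 distal peaks in Ctrl, 2, 1 and 1 in cKO and 4, 3 and 2 in Mesp1-Cre, so that all 3 groups overlapped.

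The PBX loci held few distal peaks. Pbx2, on the plus strand at chr17:34728211-34734345 among the closely packed genes of the major histocompatibility complex, had 2, 0 and 1 in Ctrl, 1, 0 and 0 in cKO and 1, 0 and 0 in Mesp1-Cre. Pbx3, a 202 kb gene on the minus strand at chr2:34026977-34228660, had 2, 1 and 1 in Ctrl, 1, 2 and 1 in cKO and 1, 1 and 1 in Mesp1-Cre. At both loci the groups overlapped. Despite its length Pbx3 had only 0.442 distal peaks per 100 kb in Ctrl, at the 30.8 percentile, and Pbx2 was at the 45.4 percentile.

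The Teashirt loci all had fewer distal peaks in cKO. Tshz1, which is needed for the soft palate and middle ear, spans bases 84181019 to 84255954 of chromosome 18 (minus strand). It had 3, 3 and 5 distal peaks in Ctrl, 1, 0 and 1 in cKO and 5, 2 and 3 in Mesp1-Cre. Tshz2, the longest of the genes at 439 kb (chr2:169458671-169897316, plus strand), had 16, 9 and 7 in Ctrl, 6, 2 and 1 in cKO and 14, 5 and 11 in Mesp1-Cre. Both loci had every cKO library below every Ctrl library and a Mesp1-Cre range that overlapped Ctrl.

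Tshz3, which acts in ureter muscle and in neurons, lies on the plus strand at chr7:37483137-37558476. It had 7, 2 and 2 distal peaks in Ctrl, none in any cKO library and 4, 1 and 2 in Mesp1-Cre. It was the locus with no distal peak in cKO, and Ctrl library 1 alone held 7 of its 11 Ctrl peaks.

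**Figure D2:**
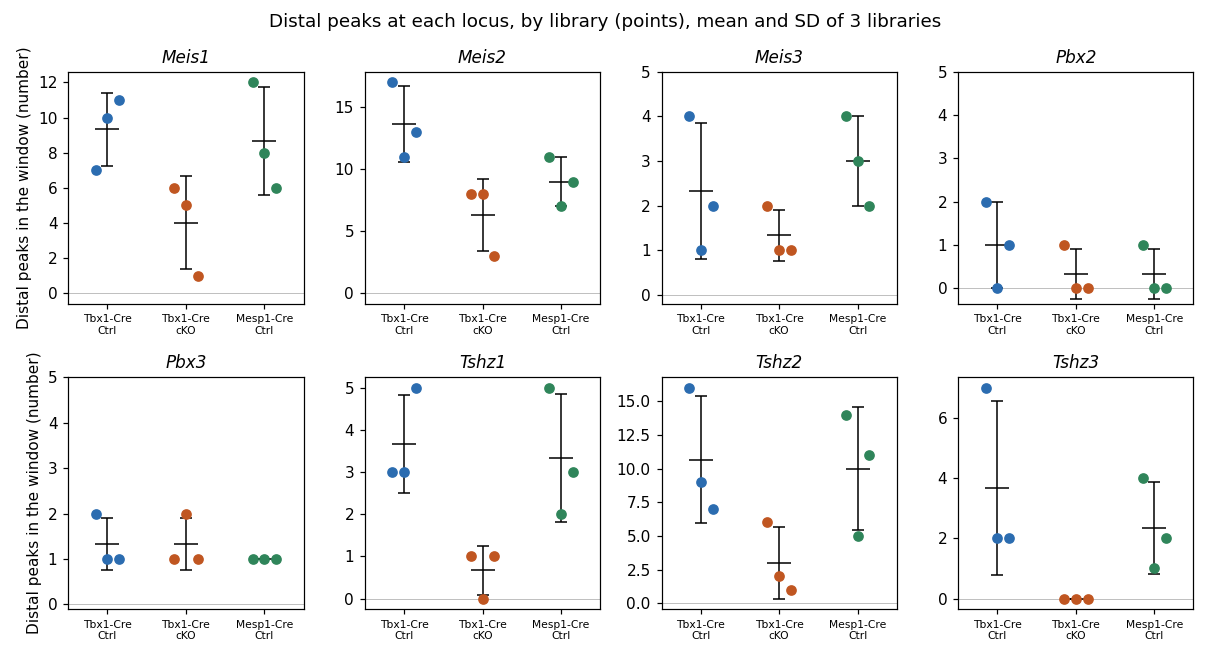
Each panel is 1 locus, the y axis is the number of distal peaks in its window, points are libraries and bars are the mean and SD of 3. Tbx1-Cre cKO libraries lie below every Tbx1-Cre Ctrl library at Meis1, Meis2, Tshz1, Tshz2 and Tshz3 (where all are at 0), and the groups overlap at Meis3, Pbx2 and Pbx3.

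Non-overlapping counts, all of them lower in cKO, were thus found at 5 of 8 loci. Over all 17837 windows with a distal peak in these libraries, 25.6% were lower in every cKO library. Among the 12589 windows that had a distal peak in all 3 Ctrl libraries, which a window must have to be called, the share was 36.3%, and 7 of the 8 loci were such windows. Each of the 5 loci had p = 0.1 in the exact two-sided permutation test, the smallest that 3 against 3 libraries can give, and an adjusted p of 0.389 over all windows. The median difference in means was -3.33 peaks over the 8 loci and -1 over the 17837 windows. Windows as a whole hold fewer distal peaks to begin with. The median of the Ctrl means was 1.33 over all 22380 windows, those without a distal peak included. When every list was cut to its 19772 widest peaks, the length of the shortest list, only Meis2 remained lower in every cKO library, and the mean at Meis1 was then 2 peaks higher in cKO. The Meis1 call was also lost with the gene body alone, with the promoter limit taken from the midpoint and in the widest 75% of each list, the Tshz3 call in the widest 75%, and the Tshz2 call with 100 kb on each side.

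Divided by the length of each list, most of the difference was gone. The 8 loci together took 18.4, 13.6 and 13.7 of every 10000 distal peaks in the Ctrl libraries, 17.2, 17.9 and 11.2 in cKO and 19.9, 23.0 and 21.8 in Mesp1-Cre. The cKO mean was 1.01 of the Ctrl mean and the ranges overlapped. The Mesp1-Cre mean was 1.42 of the Ctrl mean, and every Mesp1-Cre library lay above every Ctrl library.

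By this share, Tshz3 alone was lower in every cKO library, at 1.20 ± 0.881 per 10000 in Ctrl against 0 in each cKO library, and 7.98% of all windows were lower in the same way. Pbx3 alone was higher, at 0.443 ± 0.167 in Ctrl against 1.36 ± 0.654 in cKO (SD, n = 3), and 14.9% of all windows were higher. Pbx3 kept the same 1 or 2 distal peaks in every library, so that its share moved with the length of the list. Both had p = 0.1 in the exact permutation test and an adjusted p of 0.437. The Tshz3 call was lost when only the widest 75% of each list was kept, and with an equal number of the widest peaks, where its difference was 0 and Meis2 was the lower locus. Without Ctrl library 1 the Tshz3 difference, cKO minus Ctrl, was -0.694 in place of -1.20. Without cKO library 3 the shares of 5 loci did not overlap (Meis1, Meis2 and Pbx3 higher, Tshz1 and Tshz3 lower). Groups of fewer libraries separate more easily, and no share of all windows was taken in this setting.

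In the mesoderm lineage marked by Mesp1-Cre, no locus had a count below or above that of every Tbx1-Cre Ctrl library, and 11.2% of the 18285 windows tested were lower in every library. Meis2 came nearest, at 9 ± 2 in Mesp1-Cre against 13.7 ± 3.06 distal peaks (SD, n = 3), with its highest Mesp1-Cre library level with the lowest Ctrl library at 11. It was lower in every Mesp1-Cre library with a window of 10 kb or 100 kb on each side, or with the gene body alone. As a share of the list, 3 of 8 loci were higher in every Mesp1-Cre library, against 12.4% of windows, and none was lower, against 6.22%. These were Meis1 at 5.09 ± 1.53 against 3.16 ± 0.817 per 10000, Meis3 at 1.79 ± 0.672 against 0.763 ± 0.460, and Tshz1 at 1.85 ± 0.127 against 1.23 ± 0.360. All 3 had p = 0.1 in the exact permutation test and an adjusted p of 0.537. With the gene body alone the Meis3 difference, Mesp1-Cre minus Ctrl, was -0.109 and the Tshz1 call was lost. The Meis1 call was lost with a promoter limit of 2 kb or one taken from the midpoint, the Meis1 and Meis3 calls in the widest 75% of each list, and the Tshz1 call with an equal number of the widest peaks. The number of loci that were higher ranged from 3 to 6 when single libraries were left out, with 6 in the absence of Ctrl library 1 and 5 in the absence of Mesp1-Cre library 1. This number could not fall, since fewer libraries separate more easily, and no share of all windows was taken for it. The cKO and Mesp1-Cre comparisons share the Ctrl libraries and are not independent. The Mesp1-Cre lists also differed from the others in narrowest peak and mitochondrial intervals, and the part of this was not tested.

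Promoter peaks, within 1 kb of an annotated TSS of the gene, were found at most loci in every group. Meis2, Meis3, Pbx3 and Tshz2 had at least 1 in all 9 libraries. Meis1 lacked one in Mesp1-Cre library 2, Tshz3 in cKO library 3, and Pbx2 in cKO libraries 2 and 3 and Mesp1-Cre library 3. At Tshz1 the main upstream region, 1.39 kb from the TSS by its middle, had a peak in all 9 libraries, but the edge of the peak crossed the 1 kb limit in all Ctrl libraries, in cKO libraries 2 and 3 and in no Mesp1-Cre library. In the others the same region counted as a promoter of Zadh2, the neighbouring gene read in the opposite direction. With a limit of 2 kb, 6 of 8 loci had a promoter peak in all 9 libraries in place of 4. Counted as merged regions, 11 of 31 promoter regions in the windows (35.5%) had a peak in all 9 libraries, other genes' promoters included. Over the genome 55.0% of 19066 promoter regions did, so that such regions were less common in these windows than elsewhere.

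The 8 loci together held 14, 12 and 13 own promoter peaks in Ctrl, 8, 8 and 6 in cKO and 7, 7 and 7 in Mesp1-Cre. Every Ctrl library lay above every library of the other groups, partly through the Tshz1 peaks at the 1 kb limit. The ratio to the Ctrl mean was 0.564 in cKO and 0.538 in Mesp1-Cre, against 0.820 and 0.898 for all promoter peaks of the lists. With an equal number of the widest peaks in each list the loci held 6, 6 and 5 in Ctrl, 5, 6 and 6 in cKO and 4, 5 and 7 in Mesp1-Cre, and the groups overlapped. At Meis1, chr11:18919711-18920045, 917 bp upstream of the TSS by its middle, had a peak in all 3 Ctrl libraries and in no other library, although a cKO peak lay only 130 bp away. At Meis2, chr2:115886743-115887554 in the first part of the gene likewise had one in all 3 Ctrl libraries and in no other. Its mean width was 717 bp, and the nearest cKO peak was 3.73 kb away. These 2 were 6.45% of the 31 promoter regions in the windows, against 0.902% of 19066 over the genome, and the difference was not tested. At Tshz2, chr2:169459180-169459670 had a peak in all 3 Ctrl libraries and 2 cKO libraries but in no Mesp1-Cre library.

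Promoters of other genes inside the windows, most of them at Pbx2, held 12, 10 and 13 peaks in Ctrl, 9, 9 and 9 in cKO and 13, 11 and 11 in Mesp1-Cre. At Pbx2, 4 regions at the promoters of Notch4, Agpat1 and Rnf5, Ppt2, and Atf6b had a peak in all 9 libraries. The Pbx2 window therefore held mostly promoters of its neighbours.

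**Figure D3:**
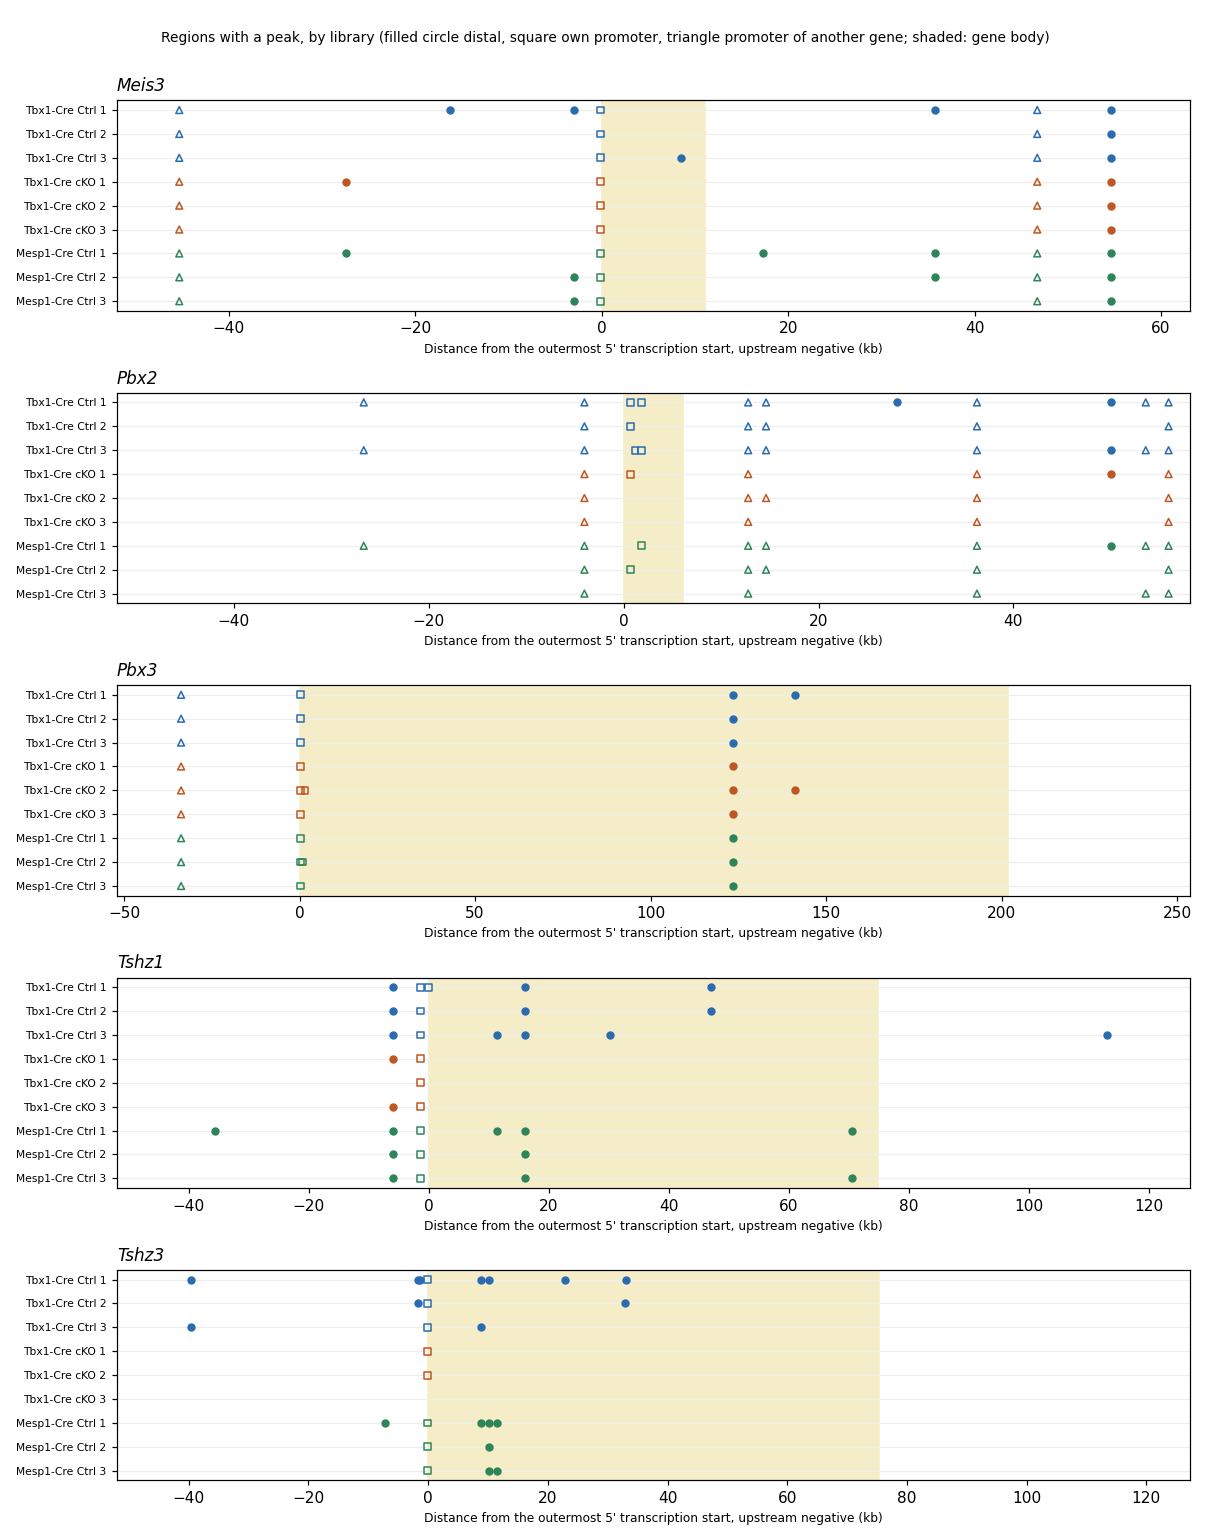
Regions with a peak at Meis3, Pbx2, Pbx3, Tshz1 and Tshz3, by library (rows) and by distance from the outermost TSS in kb (x axis, upstream negative). Filled circles are distal, open squares own promoter and open triangles promoters of other genes, and shading marks the gene body. Pbx2 holds mostly triangles, Pbx3 has 1 distal region in all 9 libraries, and the cKO rows of Tshz3 hold no circle.

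Of the 83 distal regions, 58 were intronic, 23 intergenic and 2 in coding exons. A peak was present in at least 1 Ctrl library in 70 of them, in at least 1 cKO library in 28 and in at least 1 Mesp1-Cre library in 52. In 28 (33.7%) the peak was in 1 library only, against 38.1% of distal regions over the genome, and 10 of these 28 were in Ctrl library 1. Only 2 regions with a cKO peak lacked a Ctrl peak, 1 at Meis2 and 1 at Meis3.

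A peak in all 9 libraries was found in 4 distal regions (4.82%, against 5.82% over the genome), 1 each at 4 loci. They were chr2:115845933-115847338 in an intron of Meis2 with a mean width of 667 bp, chr2:34104938-34105699 in an intron of Pbx3 with 570 bp, chr11:18920176-18920992 upstream of Meis1 with 530 bp, and chr7:16815056-16815748 in the intergenic stretch 54.7 kb beyond the TSS of Meis3 with 442 bp. The Meis2 and Pbx3 regions are the first 2 sequences printed above. The Meis1 region was 1.62 kb from the TSS by its middle and became a promoter region with a limit of 2 kb. No Teashirt locus had a distal region of this kind. Without cKO library 3, the shortest list, the number of regions in all remaining libraries was 9, though fewer libraries make this condition easier to meet.

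A peak in all 3 Ctrl libraries and in no cKO library was also found in 4 distal regions (4.82%), against 7.95% over the genome, so that such regions were not more common at these loci than elsewhere. All 4 were intronic, 2 at Tshz2 and 1 each at Meis2 and Tshz1. All 4 had a peak in at least 1 Mesp1-Cre library, and the pattern without one made up 3.87% of distal regions over the genome. The Tshz2 region chr2:169629802-169630484, whose sequence is printed above, and the Tshz1 region on chromosome 18 from 84239678 to 84240316 also had a peak in all 3 Mesp1-Cre libraries. These 2 were 2.41% of the 83 distal regions, against 0.949% over the genome. The nearest cKO peaks to them were 13.1 kb and 16.6 kb away. The Tshz2 region chr2:169821430-169822668, 363 kb into the gene, and the Meis2 region chr2:115872986-115873774 had a peak in 1 Mesp1-Cre library each. The nearest cKO peaks to these were 71.4 kb and 17.5 kb away. The number of such regions rose to 7 without cKO library 2 and to 9 without cKO library 1, to 7 without Ctrl library 2 and to 8 without Ctrl library 3, and to 8 when only the widest 75% of each list was kept. Leaving out a library makes the condition easier to meet, and no share over the genome was taken for it.

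**Figure D4:**
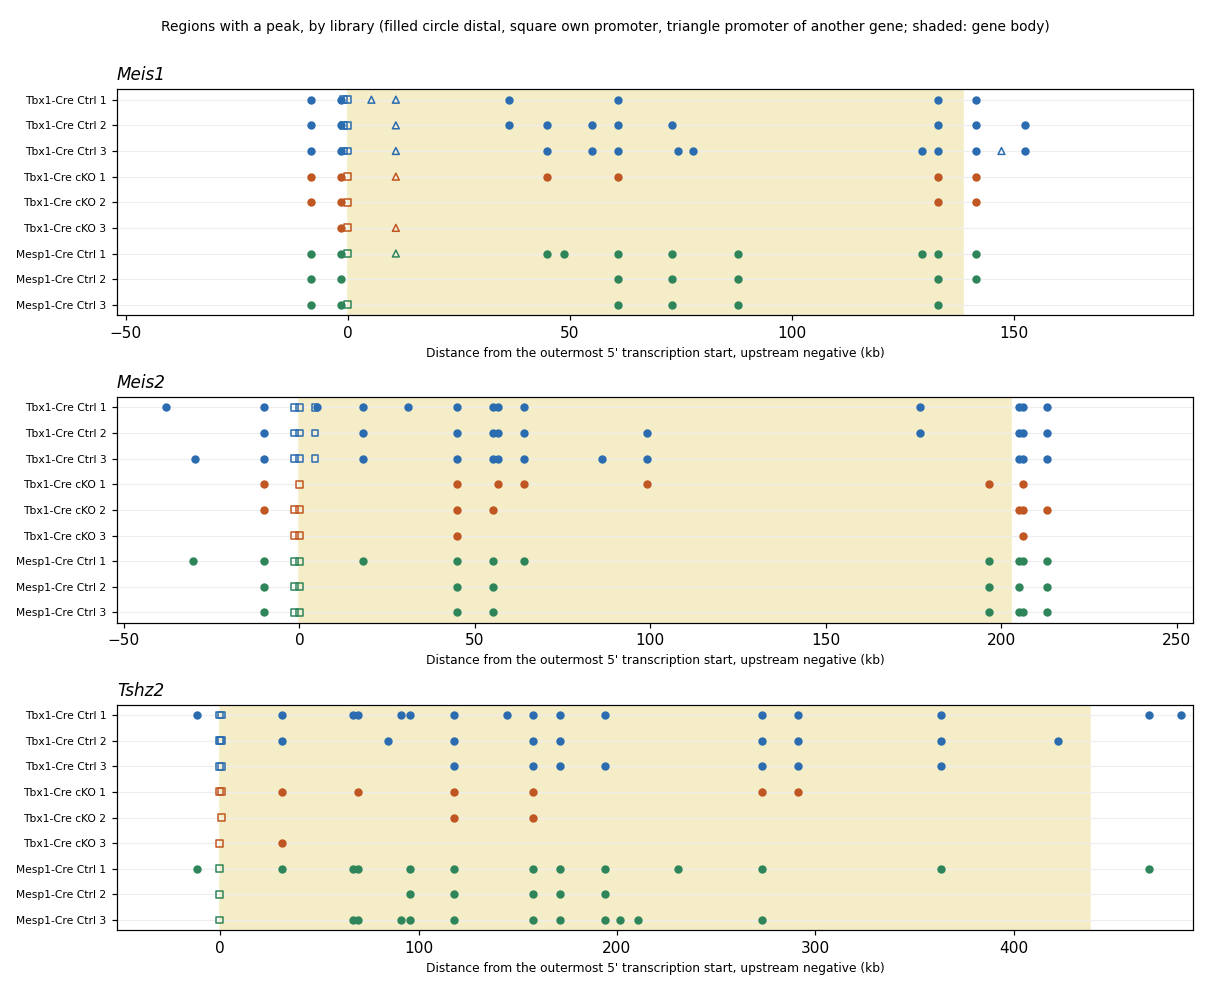
Regions with a peak at Meis1, Meis2 and Tshz2, by library (rows) and by distance from the outermost TSS in kb (x axis, upstream negative). Filled circles are distal, open squares own promoter and open triangles promoters of other genes, and shading marks the gene body. Of the 24 distal regions that all Ctrl libraries share at the 8 loci, 9 are at Meis2, 6 at Tshz2 and 5 at Meis1, and the cKO rows show subsets of them.

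The regions that the Ctrl libraries shared were called in the mesoderm lineage more often than in the shorter cKO lists. Of the 24 distal regions with a peak in all 3 Ctrl libraries, 16 (66.7%) also had one in all 3 Mesp1-Cre libraries, against 37.7% of the 15391 such regions over the genome. In cKO, 5 of the 24 (20.8%) had a peak in all 3 libraries, against 27.1%, and 15 had one in 1 or 2 of the 3. Of the 24, 2 (8.33%) lacked a Mesp1-Cre peak, against 24.6% over the genome. These 2 were chr2:115834705-115835485 in Meis2 and chr2:169749752-169750389 in Tshz2, each with a peak in 1 cKO library. Shares of 24 regions are given as a description, because regions of 1 locus and 1 library are not independent.

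**Figure D5:**
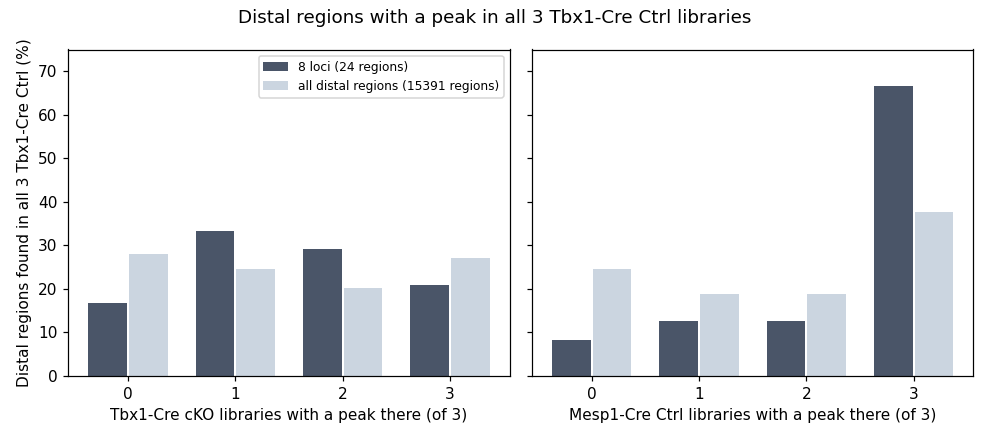
Bars give the percentage of distal regions with a peak in all 3 Tbx1-Cre Ctrl libraries (y axis) that had one in 0, 1, 2 or 3 libraries of the other group (x axis; left, Tbx1-Cre cKO, right, Mesp1-Cre Ctrl), for the 24 regions at the 8 loci (dark) and all 15391 (light). At the loci 66.7% were in all 3 Mesp1-Cre libraries, against 37.7% over the genome, and 16.7% were in no cKO library, against 28.0%.

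Regions in at least 2 Mesp1-Cre libraries and no Ctrl library numbered 4 (4.82%, against 3.94% over the genome). The Meis1 intronic region chr11:18830811-18831430, whose sequence is printed above, had a peak in all 3 Mesp1-Cre libraries and in no Tbx1-Cre library, with a mean width of 495 bp. The Meis2 intronic region chr2:115694844-115695440 had one in all 3 Mesp1-Cre libraries and in cKO library 1. The Tshz3 intronic region chr7:37494556-37494760 and a coding exon of Tshz1, on chromosome 18 from 84185136 to 84185661, had one in 2 Mesp1-Cre libraries each. Over all distal regions, a peak in all 3 Mesp1-Cre libraries was found in 22 of 83 (26.5%) at the loci and in 14.1% over the genome. No distal region of the loci had a peak in all 6 Tbx1-Cre libraries and in no Mesp1-Cre library, against 0.295% over the genome. None had one in at least 2 cKO libraries and in no Ctrl library, against 0.13%. With shares this low, 83 regions would hold few or none of either pattern.

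Among the loci with a distal peak in all 6 Tbx1-Cre libraries, the median width of distal peaks separated cKO from Ctrl at 1, Meis3. No share of all windows with separate widths was taken. Over whole lists the median width of distal peaks was also lower in every cKO library. It was 356, 389 and 416 bp in Ctrl and 306, 299.5 and 301 bp in cKO. At Meis3 the medians were 496.5, 509 and 415.5 bp in Ctrl and 369, 200 and 395 bp in cKO, from 1 to 4 peaks a library, and did not overlap. They overlapped at Meis1, Meis2, Pbx3 and Tshz2, and the other loci lacked a distal peak in at least 1 cKO library. In the 1 Meis3 region shared by all 6 Tbx1-Cre libraries the widths were 688, 509 and 535 bp in Ctrl and 538, 200 and 395 bp in cKO, so that the groups overlapped although the means, 577 and 378 bp, differed by -200 bp (cKO minus Ctrl), against -152 bp for the medians of all distal peaks.

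Related genes were counted in the same way. The other TALE genes were Pbx4, Pknox1, Pknox2, Tgif1 and Tgif2, which encode relatives of PBX and MEIS or repressors of the same class, and 2 of the 5 had fewer distal peaks in every cKO library than in every Ctrl library, where 25.6% of all windows did, or 36.3% of those with a distal peak in all 3 Ctrl libraries. Pknox2 had 19 in each Ctrl library, 13, 11 and 9 in cKO and 17, 11 and 11 in Mesp1-Cre, and Tgif1 had 5, 4 and 5, then 2, 2 and 2, then 3, 3 and 2. The same 2 genes were also lower in every Mesp1-Cre library, as were 11.2% of all windows. The share of the list went the other way. Pknox2 took 6.40 ± 0.496 of every 10000 distal peaks in Ctrl and 10.8 ± 1.82 in cKO (SD, n = 3), higher in every cKO library, and 7.65 ± 1.51 in Mesp1-Cre, where the groups overlapped. Tgif1 took 1.56 ± 0.0873 in Ctrl, 2.05 ± 0.710 in cKO and 1.66 ± 0.774 in Mesp1-Cre, and overlapped in both comparisons. The mean share in cKO was above that in Ctrl at all 5 genes, and below it in 51.3% of all windows. At 4 of the 5 the groups overlapped. Pbx4 had 3, 0 and 0 distal peaks in cKO and Pknox1 had 0, 0 and 1, so that each mean rested on 1 library. At Tgif2 the cKO mean was 1.06 of the Ctrl mean.

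Over the 9 libraries, windows were ranked by Pearson's r with the summed share of distal peaks at the 8 loci. Among 737 genes with a mean of at least 5 distal peaks, the highest were Zmiz1 (r = 0.908), Pde10a (0.869) and Ryr1 (0.866). The 9 points are libraries of only 3 groups, and the r values are descriptions.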

How the data were processed

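Peak positions were deposited by the authors as 1 list per library, 9 in all, with chromosome, start and end but no score, read count or depth. Per the labels and the study's methods, adaptor-trimmed read pairs were aligned to mm9 with Bowtie2 (2.3.4.3), unique concordant pairs were kept, duplicate and mitochondrial reads were removed, and MACS2 called peaks in each library on its own. List length can therefore move with depth and cell quality as well as with accessibility, and the part of each was not tested. The precision of a count is limited by the number of peaks. No shift of reads was applied here.

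From these lists, peaks were placed by midpoint in windows of gene body plus 50 kb (GENCODE vM1 annotation of NCBIM37), and were called promoter where the nearest edge lay within 1 kb of an annotated TSS. Intervals on the mitochondrial genome were left out. Each Mesp1-Cre list held 2 of these and had a narrowest peak of 199 bp, against 0 and 200 bp in the 6 Tbx1-Cre lists. Mesp1-Cre library 1 held 42648 peaks, more than the study gives for any Mesp1-Cre sample. Whether the lists of the 3 groups were made alike was not tested. The last peak of each chromosome ended within the reference length or less than 250 bp beyond it, which fits mm9. Peaks of the 9 lists that overlapped by at least 1 bp were merged into regions. Counts, and shares per 10000 distal peaks of the list, were compared by the exact two-sided permutation test over the 20 relabellings of 3 against 3 libraries for every window with a distal peak, with Benjamini-Hochberg adjustment, and a locus was called where the groups did not overlap. The smallest p of that test is 0.1. No 2 lists shared more than 13 identical intervals, so no list was a copy of another. The labels do not say whether libraries came from separate litters, so that p-values measure only the spread between these libraries.

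The members and lists were chosen with earlier results of these data known. A list of partner genes is not reported here. All members were named, with up to 5 regions of each pattern of presence, the widest first. Motifs were searched on both strands in 300 bases around each region's middle. The 3 windows most like the loci were those of the highest Pearson's r with the summed share of distal peaks at the 8 loci. Functions were tested on simulated data. Python 3.11.15, numpy 2.4.6, pandas 2.3.3 and matplotlib 3.10.9 were used.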

Additional observations from a re-analysis of the deposited data

How the results depend on the processing

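Of 480 differences between groups at single loci recomputed under the alternatives, 399 stayed called or stayed uncalled without a change of sign. Another 16 lost the call without a change of sign, 31 became called, and 34 changed sign. Most differences were uncalled to begin with, as only 5 counts and 2 shares for cKO and 3 shares for Mesp1-Cre were called. Of the 399, 23 moved to or from a difference of 0, and of the 16, 2 moved to 0. The cause was not tested for any of them. Fewer distal peaks in every cKO library than in every Tbx1-Cre Ctrl library were found at 5 loci, at 3 in the widest 75% of each list (Meis2, Tshz1 and Tshz2) and at 1 with an equal number of the widest peaks per list (Meis2). No locus had fewer peaks in every Mesp1-Cre library, against 2 with 100 kb on each side (Meis2 and Pbx3) and 1, Meis2, with 10 kb, the gene body only, the promoter limit taken from the midpoint or the widest 75%. Shares that did not overlap between cKO and Tbx1-Cre Ctrl fell from 2 loci to 1 in the widest 75% (Pbx3), and shares higher in every Mesp1-Cre library from 3 to 1 (Tshz1). Distal regions in 3 Tbx1-Cre Ctrl and no cKO library numbered 8 in place of 4 in the widest 75%, regions in all 9 libraries numbered 1 in place of 4 with equal numbers, and the 1 locus with separate median widths (Meis3) became 0 over regions present in all 6 Tbx1-Cre libraries, where the Meis3 means still differed by -200 bp (cKO minus Tbx1-Cre Ctrl).

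With 1 library omitted at a time, 0 to 1 loci were lower in Mesp1-Cre (1, Meis2, without Tbx1-Cre Ctrl 2 or without Mesp1-Cre 1), 2 to 5 loci had separate cKO shares (5 without cKO 3), 3 to 6 with separate Mesp1-Cre shares (6 without Tbx1-Cre Ctrl 1, 5 without Mesp1-Cre 1) and 1 to 2 had separate widths (2 without any 1 of the cKO libraries). Regions in Tbx1-Cre Ctrl and not cKO numbered 4 to 9 (9 without cKO 1, 8 without Tbx1-Cre Ctrl 3, 7 without Tbx1-Cre Ctrl 2 or cKO 2), and regions in all libraries 4 to 9 (9 without cKO 3). The number of loci with fewer peaks in every cKO library was 5 each time.

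Signs changed as follows, as differences in mean distal peaks. With equal numbers, cKO minus Tbx1-Cre Ctrl was 2 at Meis1 and 0.333 at Meis3, and Mesp1-Cre minus Tbx1-Cre Ctrl was 3.33 at Meis1, 0.333 at Pbx3 and 0.333 at Tshz3. Mesp1-Cre minus Tbx1-Cre Ctrl was -0.333 at Meis3 (gene body only, and widest 75%) and 0.333 at Tshz1 (100 kb, and widest 75%). Without single libraries it ran from -2.33 to 0.667 at Meis1, -1.17 to 0.333 at Tshz1, -2.67 to 2 at Tshz2 and -2.17 to 0.333 at Tshz3. As shares per 10000 distal peaks, cKO minus Tbx1-Cre Ctrl was -0.794 (gene body) and -0.331 (promoter limit 2 kb) at Meis1, -2.14 at Meis2 (equal numbers), and -0.215 (10 kb) and -0.109 (gene body) at Meis3, and without single libraries it ran from -0.402 to 1.39 at Meis1 and -0.320 to 0.0655 at Pbx2. Mesp1-Cre minus Tbx1-Cre Ctrl was -0.636 at Meis2 (equal numbers), -0.109 at Meis3 (gene body), -0.382 at Pbx3 (100 kb) and -0.0512 at Tshz3 (widest 75%), and ran from -0.253 to 0.529 at Tshz3 without single libraries.

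Same-numbered Tbx1-Cre libraries did not all deviate together. Over 3144 windows, Pearson's r of their deviations from the group means was 0.255, -0.01 and 0.169, so the numbers were not taken to pair libraries. With the replicate block, 5 loci had fewer peaks in cKO, 1 had fewer in Mesp1-Cre (Meis2), 5 had separate cKO shares, 4 had higher Mesp1-Cre shares and 2 had separate widths (Meis1 and Meis3). Groups that do not overlap also differ in every pair, so these numbers could not fall.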
